A study of Mus musculus with 12 samples.

Results

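miR-221 and miR-222 are a pair of microRNAs (miRNAs) that are cut from one primary transcript on the mouse X chromosome and carry the same seed. They were chosen by name, as the assays for mmu-miR-221 and mmu-miR-222, and are 2 of the 375 miRNA assays on the array. A miRNA guides a silencing complex to messenger RNAs that pair with its seed, the short stretch near its 5′ end, so that miRNAs with one seed can share targets. In endothelial cells both are known for restraining the stem cell factor receptor Kit and with it vessel sprouting, and in smooth muscle and tumour cells for repressing the cell cycle inhibitor Cdkn1b. The study stimulated NOD1 and NOD2, cytosolic receptors for fragments of bacterial peptidoglycan that activate NF-κB.

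The mature sequences are shown because they define the pair and because the assays have to tell them apart. In both, the seed at bases 2 to 8 is in capitals, and the sequences are those of RefSeq on GRCm38.p6.
mmu-miR-221-3p: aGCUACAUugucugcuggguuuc
mmu-miR-222-3p: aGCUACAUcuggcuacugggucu
mmu-miR-1928: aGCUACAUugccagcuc
The first 8 bases of miR-221-3p and miR-222-3p are identical, and over the whole length, aligned without gaps, 11 of 23 positions are. Both lie on the minus strand, miR-221-3p at chrX:19146307-19146329 and miR-222-3p at chrX:19146901-19146923. Of 1738 mature mouse miRNAs in the RefSeq table, 3 carry this seed, which is 0.173%. The third, miR-1928, comes from chr1:74206562-74206578, also on the minus strand, shares its first 10 bases with miR-221-3p, and has no assay on the array. The names of both assays state no arm, and the older name without an arm was taken as the 3p arm. The sequences that the assays amplify were not used here.

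The hairpins are shown because their order and spacing place both miRNAs in one transcript. The mature 3p arm is in capitals.
Mir221: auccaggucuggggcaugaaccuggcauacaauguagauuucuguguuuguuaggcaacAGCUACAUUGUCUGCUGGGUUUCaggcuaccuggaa
Mir222: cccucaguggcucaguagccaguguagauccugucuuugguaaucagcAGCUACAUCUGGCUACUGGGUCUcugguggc
The hairpin of miR-221 covers 95 bases at chrX:19146294-19146388 and that of miR-222 covers 79 bases at chrX:19146893-19146971. They are 504 bases apart. Transcription runs on the minus strand, so miR-222 comes before miR-221. The stretch lies between genes. In the RefSeq annotation the nearest gene towards higher coordinates is the long noncoding RNA Gm14636, at a distance of 9500 bases, and towards lower coordinates the pseudogene Gm5383, at 203060 bases.

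The cells were primary pulmonary endothelial cells of wild-type male C57BL/6N mice aged 6 to 10 weeks, with the lungs of 3 mice pooled per isolation and cells selected on magnetic beads, first for CD144 and then for CD31. Confluent cells were kept for 2 hours in medium with little serum and then left unstimulated (control), or stimulated for 6 hours with 10 μg/mL of Tri-DAP, a NOD1 ligand, or 10 μg/mL of MDP, a NOD2 ligand. Each of the 3 groups has 4 TaqMan low-density arrays (TLDAs), and per the methods 4 cell isolations were used. The labels number the 12 arrays from 4 to 15 and do not say which arrays share an isolation, so p-values measure the spread between arrays. The main fit treats the arrays as unpaired. The arrays are named here by group and number, as in control 4.

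A TLDA is a card of real-time PCR wells, each for one small RNA, and its readout is the threshold cycle (Ct). The more of the RNA a sample holds, the lower its Ct, with a factor of 2 per cycle at full PCR efficiency. Of the 375 miRNAs, 174 were measured on all 12 arrays, among them miR-221 and miR-222, and 231 to 254 were measured per array. The negative control assay, a plant miRNA, crossed no threshold on any of the 12 arrays. The endothelial markers miR-126-3p and miR-126-5p were measured on all arrays with mean Cts of 19.7 and 21.3, the earliest of the 174. Among markers of other cells, all 4 of the mural or fibroblast list were measured on all arrays, with miR-143 between Ct 24.8 and 30.6 and miR-145 between 23.1 and 33.1. Of the 8 epithelial miRNAs, miR-429 and miR-203 were measured on 12 arrays, miR-200b and miR-200c on 11 (from Ct 25.6 and 28.3), miR-200a and miR-141 on 10, miR-375 on 6 and miR-205 on 1. Of 5 leukocyte or erythroid miRNAs with an assay, miR-150 (mean Ct 29.8) and miR-223 (31.3) were measured on 12 arrays, miR-142-3p on 9, miR-451 on 3 and miR-142-5p on 2. RNA came from whole cultures, so fewer cells of a type and less RNA per cell cannot be told apart.

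Both miRNAs were measured early and close to the same cycle in every group. The Ct of miR-221 was 24.42, 25.01, 24.98 and 24.83 on controls 4, 7, 10 and 13. After Tri-DAP it was 24.46, 25.32, 24.75 and 24.98 on arrays 5, 8, 11 and 14, and after MDP it was 24.29, 25.20, 24.70 and 25.21 on arrays 6, 9, 12 and 15. All 12 values lay within about 1 cycle, and the ranges of the groups overlapped. The group means were 24.8 ± 0.27 for control, 24.9 ± 0.36 for Tri-DAP and 24.8 ± 0.44 for MDP (SD, n = 4 arrays each).

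The Ct of miR-222 was 23.63, 23.42, 23.84 and 23.17 on the control arrays, in the same order. After Tri-DAP it was 23.25, 24.49, 23.32 and 23.50, and after MDP 23.20, 24.19, 23.35 and 23.62. Tri-DAP 8 and MDP 9 had the latest Ct of miR-222, and the other 10 arrays lay between 23.17 and 23.84 in all 3 groups. The group means were 23.5 ± 0.29 for control, 23.6 ± 0.58 for Tri-DAP and 23.6 ± 0.43 for MDP (SD, n = 4 arrays each).

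The order of mean Ct describes how early an assay crossed the threshold, not molecules per cell, since assays can differ in efficiency. In that order miR-222 was number 10 and miR-221 number 22 of the 174 miRNAs measured on all arrays, so that 94.3% and 87.4% of them came later. The median miRNA had a mean Ct of 29.0. On single arrays miR-222 held a place between 9 and 13, and miR-221 a place between 16 and 32. Over the control arrays alone the places were again 10 and 22, and over the Tri-DAP or the MDP arrays alone they were 10 and 21. With all 320 miRNAs that were measured on at least 1 array in the order, the places were 17 and 30.

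The miRNAs next to the pair in this order were not separated from it. miR-191 came directly before miR-222 with a mean Ct of 23.4, but was later than miR-222 on 4 of the 12 arrays. miR-21, a miRNA induced in many inflamed tissues, came directly after miR-222 with 23.7 and was later on 9 of 12. let-7g (24.8) and miR-99b (24.9) stood on either side of miR-221 and were later than it on 6 and 8 of 12 arrays. In each of these neighbours the mean difference was smaller than its SD over the arrays.

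The Cts of the pair also varied little between arrays. The SD over all 12 arrays was 0.33 cycles for miR-221 and 0.41 for miR-222, against a median of 0.77 over the 174 miRNAs, and 4.02% and 12.1% of these had a smaller SD. The U6 mean, by which the deposited values were normalized, had a larger SD of 0.88 cycles. U6 ranged from 18.3 on Tri-DAP 14 to 21.6 on Tri-DAP 8, and the 4 U6 wells of one array differed among themselves with SDs between 0.11 and 2.05. The small nucleolar RNA snoRNA202, another reference on the array, had an SD of 0.36 cycles.

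On the deposited scale, log2 level relative to U6, the values of the pair spread more than their Cts. miR-221 was -4.59, -4.97, -5.72 and -5.39 on controls 4, 7, 10 and 13. It was -4.79, -3.72, -6.19 and -6.70 on Tri-DAP 5, 8, 11 and 14, and -4.08, -5.19, -5.99 and -5.50 on MDP 6, 9, 12 and 15. The highest and the lowest of the 12 levels were both after Tri-DAP, on arrays 8 and 14, the arrays with the latest and the earliest U6. The order of the group means of log2 levels was control (-5.17 ± 0.49), MDP (-5.19 ± 0.81) and Tri-DAP (-5.35 ± 1.35), and no neighbours in this order differed beyond their SD (n = 4).

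miR-222 followed the same order on this scale. Its log2 level relative to U6 was -3.80, -3.38, -4.58 and -3.73 on the control arrays. It was -3.57, -2.88, -4.76 and -5.22 after Tri-DAP and -2.99, -4.18, -4.64 and -3.91 after MDP. Tri-DAP 8 was again the highest array and Tri-DAP 14 the lowest. The group means were -3.87 ± 0.51 for control, -3.93 ± 0.70 for MDP and -4.11 ± 1.07 for Tri-DAP (SD, n = 4), again with no neighbours that differed beyond their SD.

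**Figure D1:**
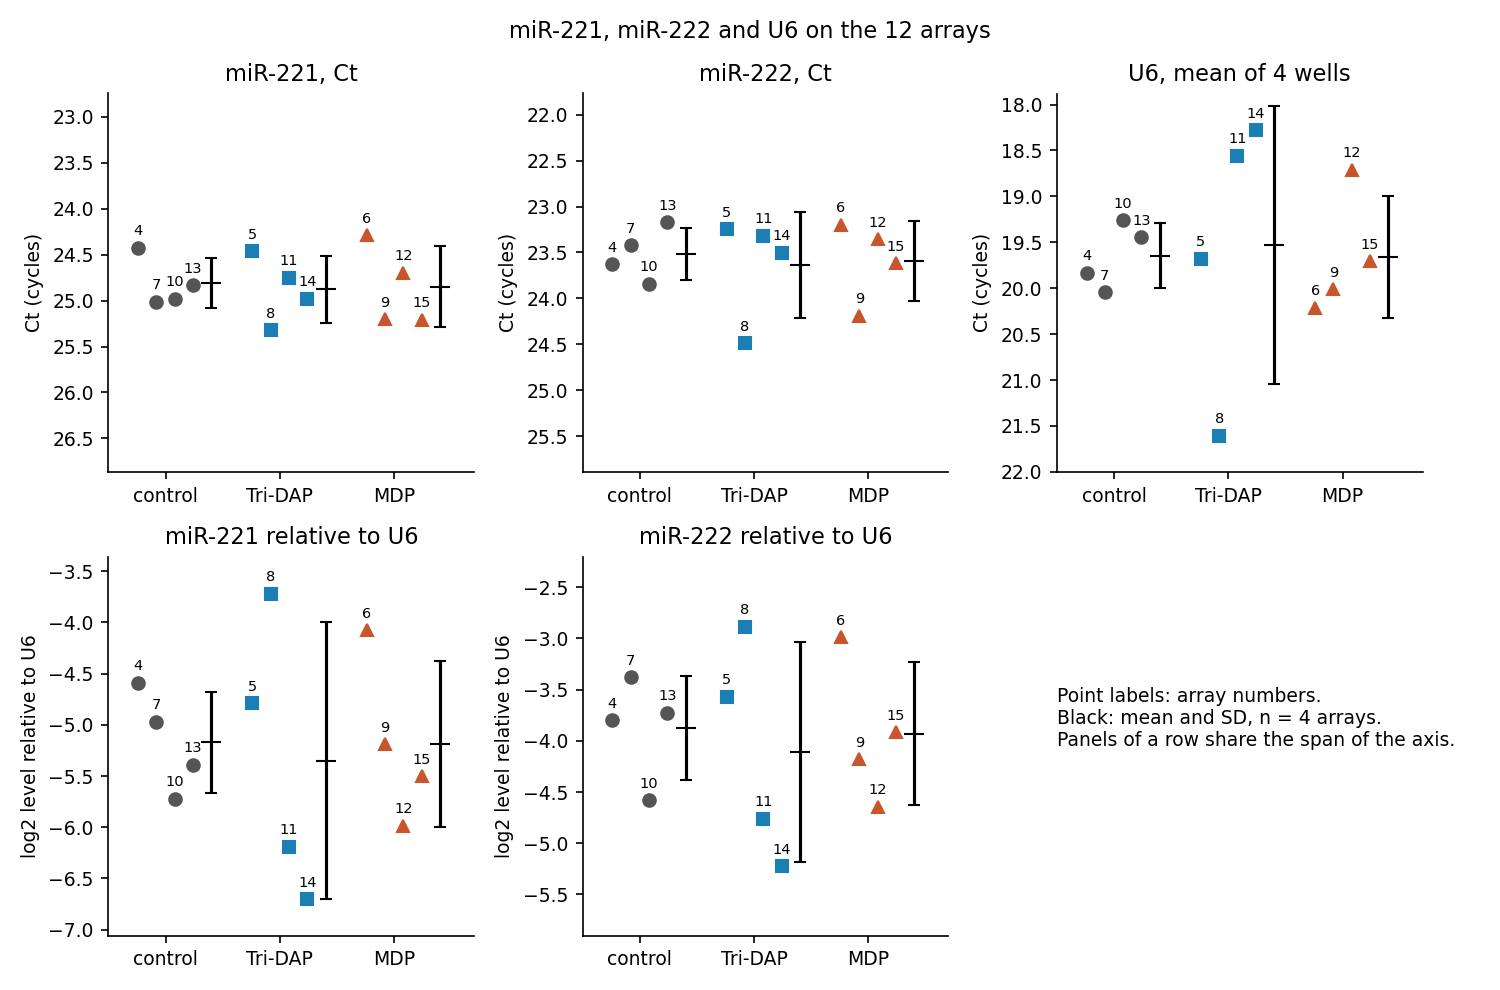
Ct of miR-221, miR-222 and U6 (upper row, cycles, axis turned so that more RNA is up) and log2 level of both miRNAs relative to U6 (lower row) on each of the 12 arrays, by group. Points carry the array number, and the black bar is the mean with its SD (n = 4). The Cts of both miRNAs overlap between the groups, while U6 runs from 18.3 to 21.6 and the levels relative to U6 spread more, most after Tri-DAP.

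The design asks whether either ligand changed these miRNAs within 6 hours. Neither miR-221 nor miR-222 was called in any of the 3 comparisons, at an unadjusted p under 0.05 from limma over all miRNAs with at least 2 measured values in both groups. The background of such calls was 1.69% for Tri-DAP against control (4 of 237 miRNAs), 1.23% for MDP against control (3 of 244) and 2.07% for MDP against Tri-DAP (5 of 241). After Benjamini-Hochberg adjustment limma called 0 miRNAs in each. Groups without overlap were found for 0% of 181 miRNAs with complete values in the groups compared, in Tri-DAP against control, in MDP against control and in MDP against Tri-DAP.

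After Tri-DAP, the log2 level of miR-221 relative to U6 differed from control by -0.18, with a 95% interval from -1.72 to 1.36 (limma, SE 0.71, adjusted p = 0.998). For miR-222 the log2 difference was -0.24, with an interval from -1.62 to 1.14 (limma, SE 0.63, adjusted p = 0.998). The median log2 difference over all 237 miRNAs was -0.24, so both members lay near it. Two-sided exact permutation tests over the arrays gave p = 0.83 for miR-221 and 0.743 for miR-222, where the smallest p that 4 against 4 arrays allow is 0.0286. Ordered by p, miR-221 stood at place 160 and miR-222 at place 127 of 237.

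After MDP, the log2 difference from control was -0.02 for miR-221, with an interval from -1.56 to 1.52 (limma, SE 0.71, adjusted p = 1.0). It was -0.06 for miR-222, with an interval from -1.44 to 1.32 (limma, SE 0.63, adjusted p = 1.0). The exact permutation p was 0.971 for miR-221 and 0.857 for miR-222. The median over all 244 miRNAs was -0.02, and the members stood at places 229 and 201 in the order of p.

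Between the ligands, the log2 difference of MDP from Tri-DAP was 0.16 for miR-221 (95% interval -1.38 to 1.70, limma, adjusted p = 0.999) and 0.18 for miR-222 (-1.20 to 1.56, limma, adjusted p = 0.999). The exact permutation p was 0.914 and 0.771. All 241 miRNAs had a median of 0.18. The comparisons with control share the control arrays and are not independent of each other.

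These intervals do not exclude a 2-fold change in either direction. They were narrower with references other than U6 alone. Relative to the mean of the 174 miRNAs with complete values, the log2 difference of miR-221 was 0.05 after Tri-DAP (interval -0.82 to 0.92) and 0.01 after MDP (-0.85 to 0.88). For miR-222 it was -0.01 after Tri-DAP (-0.70 to 0.69) and -0.03 after MDP (-0.72 to 0.67). All these intervals lie inside 1 log2 unit on either side of 0, that is, inside a 2-fold change. This holds for the uncorrected Ct as well, where the log2 differences after Tri-DAP and MDP were -0.07 and -0.04 for miR-221 (SE 0.33) and -0.12 and -0.08 for miR-222 (SE 0.37). Between U6 and the mean of the 174 miRNAs the sign of the difference turned for miR-221 in all 3 comparisons and for miR-222 in MDP against Tri-DAP.

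**Figure D2:**
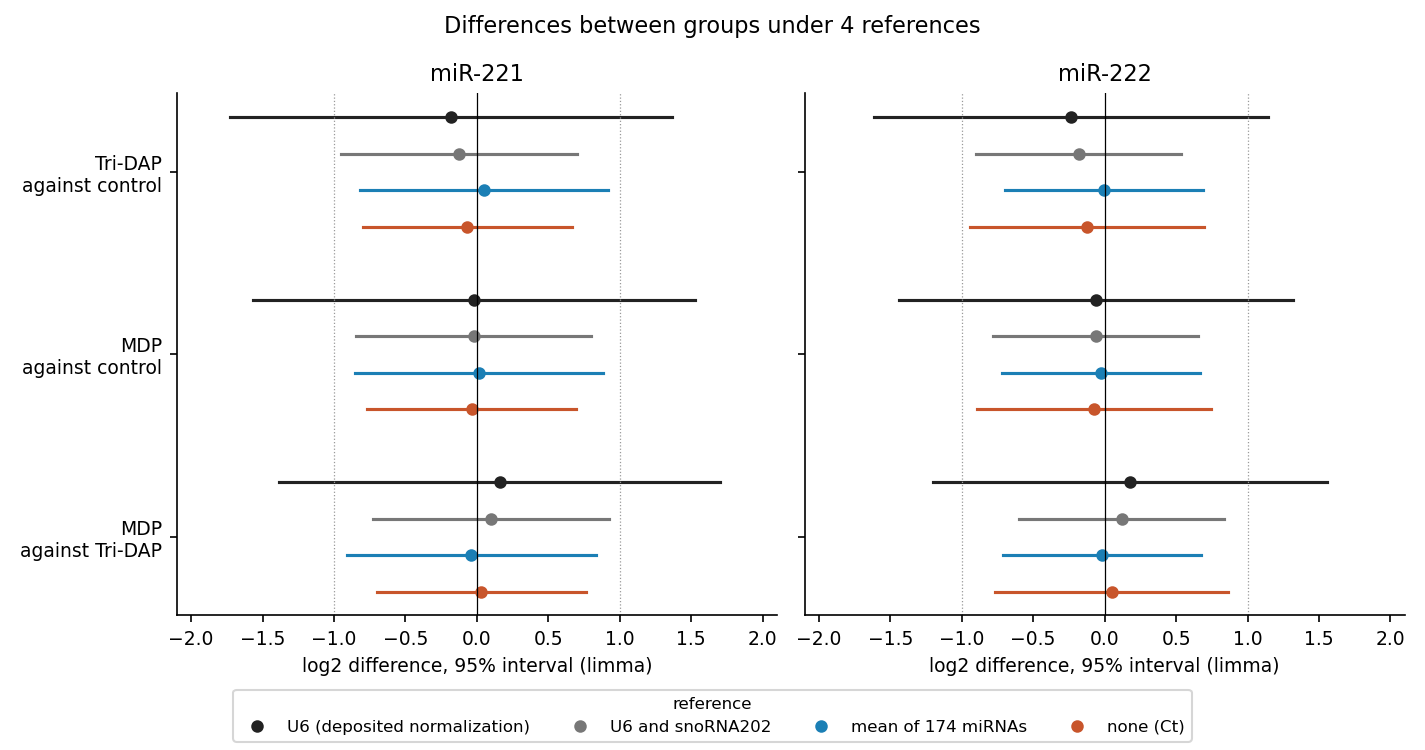
Log2 difference of miR-221 (left) and miR-222 (right) in each of the 3 comparisons, as point and 95% interval from limma, under 4 references: U6 as deposited, U6 with snoRNA202, the mean of the 174 miRNAs with complete values, and none. Dotted lines mark a 2-fold change. Every interval includes 0, and only those relative to U6 alone reach past a 2-fold change.

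The difference of both Cts on one array depends on neither the reference nor the amount of RNA. miR-222 crossed the threshold before miR-221 on 12 of 12 arrays. The lead of miR-222 was 0.79, 1.59, 1.14 and 1.66 cycles on the control arrays. It was 1.22, 0.84, 1.43 and 1.48 cycles after Tri-DAP and 1.09, 1.01, 1.34 and 1.59 cycles after MDP. The lead was smallest on control 4 and largest on control 13, so the control group alone covered the range of all arrays.

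The mean lead was 1.30 ± 0.41 cycles for control, 1.24 ± 0.29 for Tri-DAP and 1.26 ± 0.26 for MDP (SD, n = 4 arrays each). Tri-DAP differed from control by -0.06 cycles, with a 95% interval from -0.67 to 0.56, and MDP by -0.04, with an interval from -0.63 to 0.55. The two-sided exact permutation p was 0.8 in both. MDP differed from Tri-DAP by 0.02 cycles (-0.46 to 0.50, exact permutation p = 0.943), and all 3 adjusted p-values were 0.943. No change in the proportion of both miRNAs was detectable with these arrays, and the intervals leave room for a change of up to 0.67 cycles. How much of the lead is a difference in molecules and how much a difference between the assays cannot be told apart in these data.

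The steadiness of the pair within an array can be set beside other miRNAs that are known to come from one transcript. Of a list of 22 such pairs, 17 were measured on all arrays. The SD of the within-array Ct difference over the 12 arrays was 0.30 cycles for miR-221 and miR-222, the 3rd smallest of the 17. miR-17 and miR-20a, members of the miR-17-92 cluster, had the smallest SD with 0.21. miR-19b and miR-92a, of the same cluster, were in the middle with 0.43, and miR-143 and miR-145, which mark smooth muscle and other mural cells, had the largest with 1.45. Over all 15051 pairs that the 174 miRNAs form, the median SD was 1.09, and 0.857% of pairs had an SD below that of miR-221 and miR-222. miRNAs with a small spread of their own give small differences in any pair, so this order does not single out co-transcription.

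**Figure D3:**
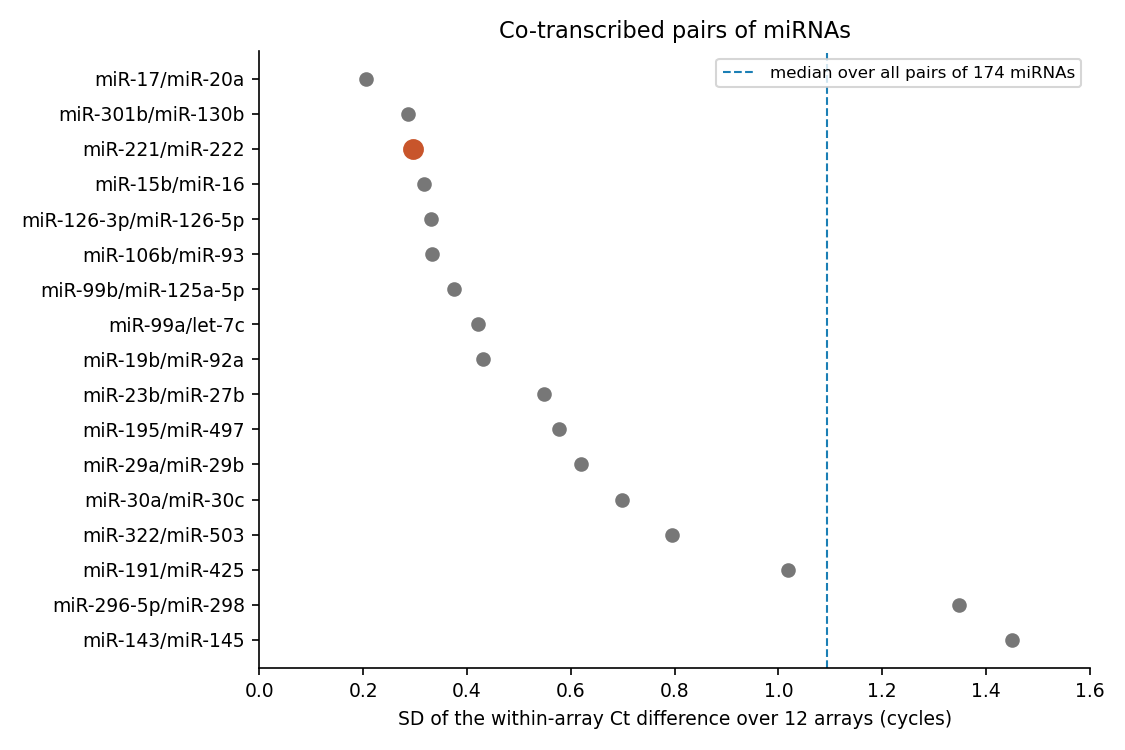
SD over the 12 arrays of the Ct difference between both partners (cycles) for 17 pairs of miRNAs known to be transcribed together, with miR-221 and miR-222 in orange and the median over all pairs of the 174 miRNAs as a dashed line. miR-221 and miR-222 (0.30) are the 3rd lowest, and miR-143 and miR-145 (1.45) the highest.

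To follow both miRNAs across arrays without U6, their levels were taken relative to the mean of the 174 miRNAs with complete values. On this scale the log2 level of miR-221 was 4.30, 4.0, 3.70 and 3.39 on controls 4, 7, 10 and 13. It was 4.36, 4.37, 3.53 and 3.33 on Tri-DAP 5, 8, 11 and 14, and 4.34, 4.13, 3.81 and 3.16 on MDP 6, 9, 12 and 15. Each group held high levels on its lower-numbered arrays and low levels on its higher-numbered ones, and a group's own range was many times the difference between group means. The log2 level of miR-222 was 5.09, 5.60, 4.84 and 5.05 for control, 5.57, 5.21, 4.96 and 4.81 for Tri-DAP, and 5.42, 5.14, 5.15 and 4.75 for MDP.

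Arrays with neighbouring numbers in the labels, 1 from each group, had like levels of miR-221. It lay between 4.30 and 4.36 on arrays 4 to 6, between 4.0 and 4.37 on arrays 7 to 9, between 3.53 and 3.81 on arrays 10 to 12, and between 3.16 and 3.39 on arrays 13 to 15. The means of these sets were 4.33, 4.17, 3.68 and 3.30 for miR-221 and 5.36, 5.32, 4.98 and 4.87 for miR-222. For miR-221 neither of the last 2 sets overlapped any other set, whereas for miR-222 arrays 13 to 15 were apart from arrays 4 to 6 and 7 to 9, and the other sets overlapped. Neither the labels nor the methods say what a run of numbers stands for, and these sets were formed after the values were seen.

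The 4 marker lists differed between the same sets to unlike degrees. The summed log2 level of the 4 mural or fibroblast miRNAs, relative to the same mean, was 2.28 to 2.75 on arrays 4 to 6, 1.20 to 1.38 on arrays 7 to 9, 3.57 to 3.81 on arrays 10 to 12 and 6.29 to 6.45 on arrays 13 to 15. That of both endothelial miRNAs was 9.33 to 9.94, 9.90 to 10.3, 9.74 to 10.1 and 8.11 to 8.23, with only the last set apart. The set with the lowest miR-221 was thus the one with the highest mural and the lowest endothelial sum. The epithelial sum was -2.60 to -0.39 on arrays 7 to 9, 0.64 to 0.96 on arrays 10 to 12 and 1.72 to 1.97 on arrays 13 to 15. These sets were apart from each other, while arrays 4 to 6, at -0.81 to 3.18, overlapped all of them. The leukocyte or erythroid sum was -0.97 to -0.26, -0.25 to -0.013, -0.68 to 0.095 and -1.39 to -0.90 on the same sets in order. Arrays 13 to 15 reached lowest and overlapped only arrays 4 to 6. Between the study's groups the mural and the endothelial sum had nearly equal ranges. The mural sum was 1.20 to 6.45 for control, 1.27 to 6.43 for Tri-DAP and 1.38 to 6.29 for MDP. The endothelial sum was 8.20 to 10.3, 8.23 to 10.1 and 8.11 to 9.95. The ranges of the other lists were less alike, in the same order of groups. For the epithelial sum they were -2.60 to 3.18, -1.45 to 1.84 and -0.81 to 1.97. For the leukocyte or erythroid sum they were -0.91 to -0.013, -1.39 to -0.25 and -0.97 to 0.095. In the limma test 0 miRNAs of the endothelial, mural, epithelial and leukocyte lists were called in any of the 3 comparisons, near the background of 1.23% to 2.07% for lists this short. Only 6 of the 8 epithelial and 3 of the 5 leukocyte or erythroid miRNAs had enough values to be tested. The part of these markers in the level of miR-221 was not tested.

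**Figure D4:**
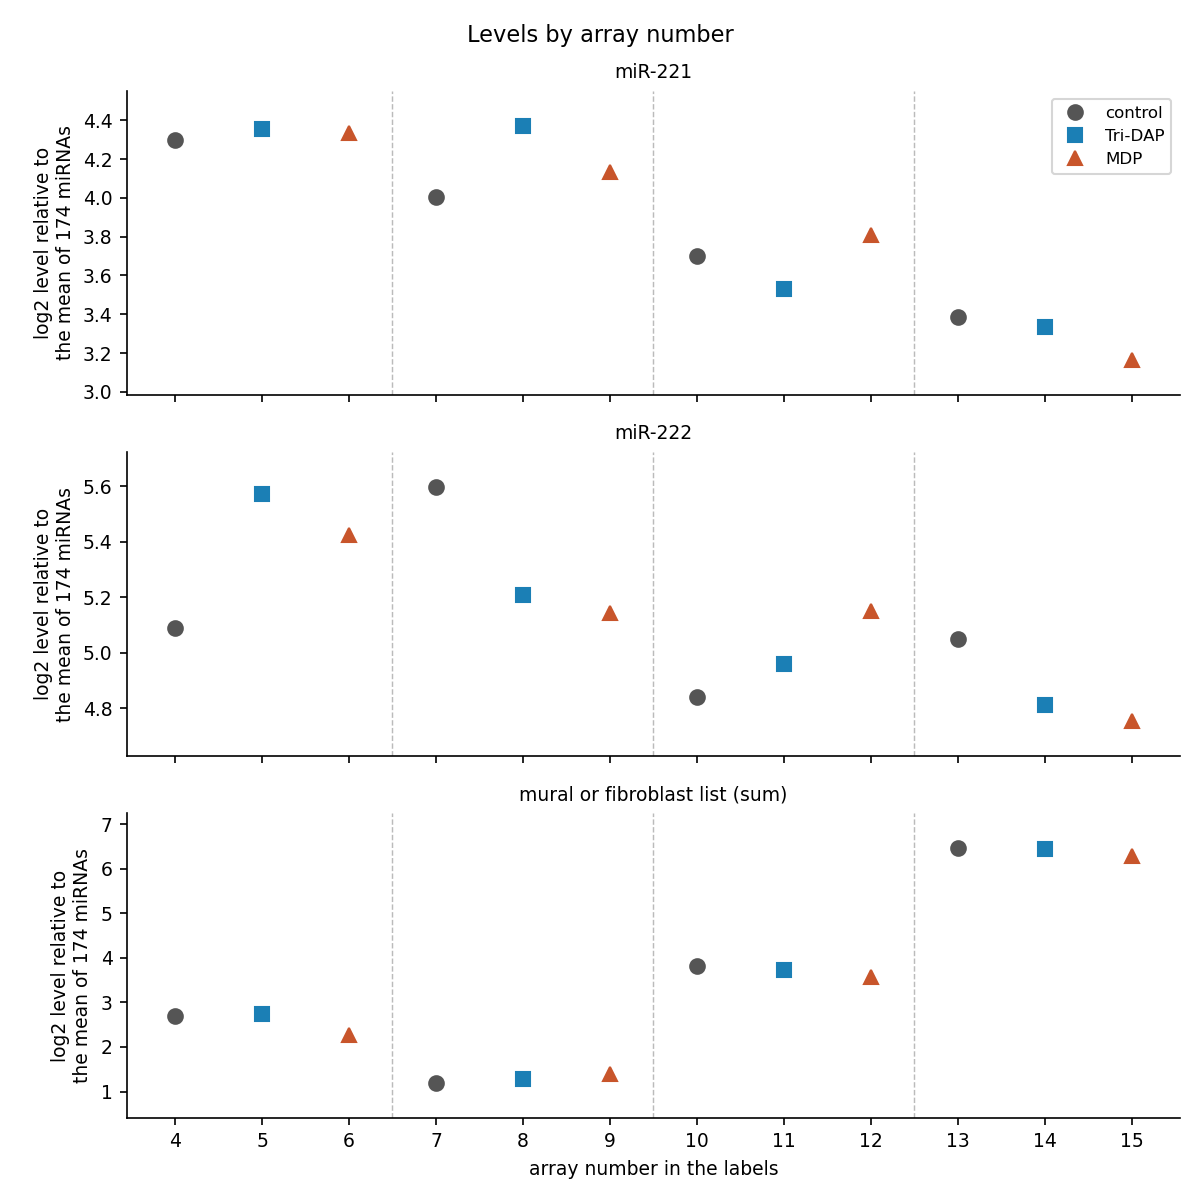
Log2 level relative to the mean of the 174 miRNAs with complete values, for miR-221, miR-222 and the sum of the 4 mural or fibroblast miRNAs, against the array number in the labels. Dashed lines separate runs of 3 numbers, each with 1 array per group. miR-221 steps down from 4.33 on arrays 4 to 6 to 3.30 on arrays 13 to 15 with the 3 groups close together, and the mural sum is highest on arrays 13 to 15.

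Over the 12 arrays the levels of both miRNAs on this scale rose and fell together. Pearson's r was 0.75 (permutation p = 0.00558, adjusted p = 0.0167 over 3 relations) and Spearman's rho 0.80 (permutation p = 0.0027, adjusted p = 0.0081). Without MDP 15 and Tri-DAP 14, the arrays farthest from the median of miR-221, r was 0.60 (permutation p = 0.073) and no longer passed the threshold. Taken as deviations from the mean of each run of 3 array numbers, r was 0.02 (permutation p = 0.952). Within the runs no relation was detectable, and the p-values over all 12 arrays do not allow for the likeness of arrays within a run. With any single array left out r was 0.68 to 0.82 and passed the threshold in 12 of 12 cases.

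**Figure D5:**
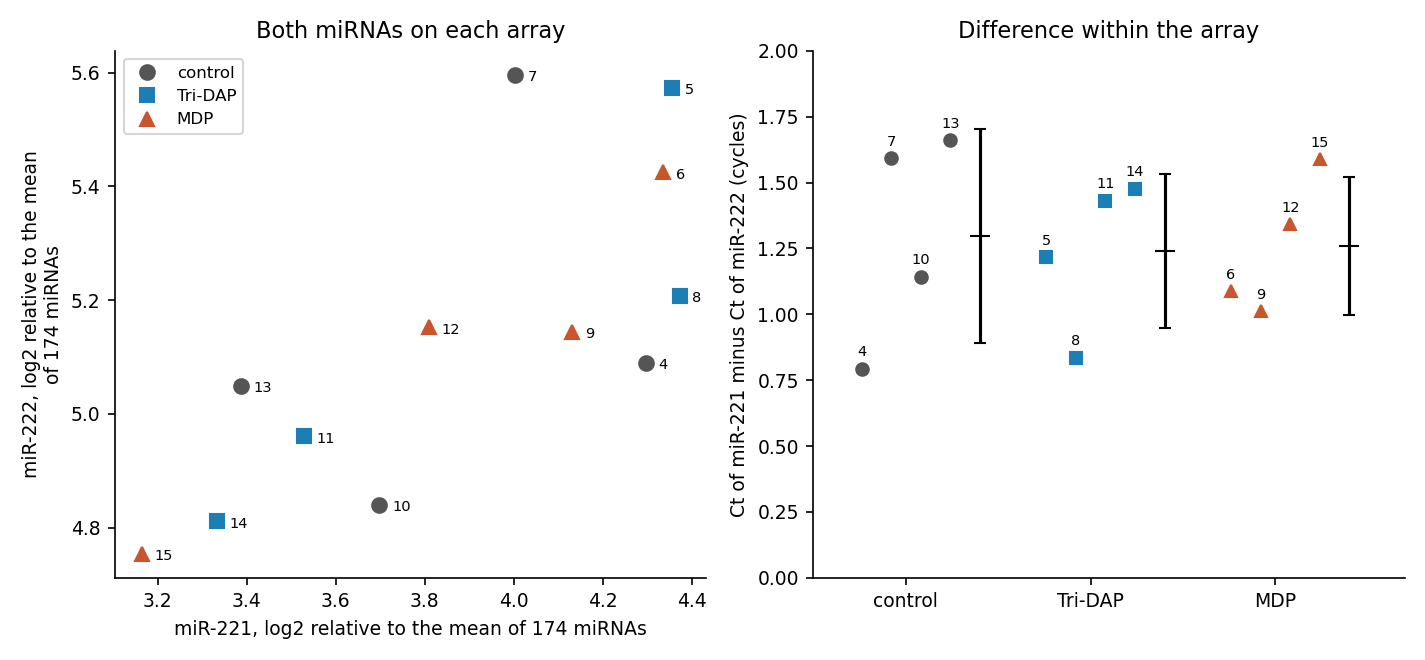
Left, log2 level of miR-222 against that of miR-221, both relative to the mean of the 174 miRNAs, on the 12 arrays (numbers beside the points). Right, Ct of miR-221 minus Ct of miR-222 on each array in cycles, by group, with mean and SD (n = 4). The levels correlate with r = 0.75 over all arrays, and the lead of miR-222 lies between 0.79 and 1.66 cycles with overlapping groups.

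The other 2 relations set the Ct of each member against the U6 mean of the same array. For miR-221 r was 0.24 (permutation p = 0.468, adjusted p = 0.468) and rho 0.21, and for miR-222 r was 0.58 (permutation p = 0.052, adjusted p = 0.078) and rho 0.27. Without Tri-DAP 8 and Tri-DAP 14 the values of r were -0.03 and 0.21. Neither relation passed the threshold after adjustment.

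The miRNAs whose levels ran most like those of the pair over the 12 arrays were found among the other 165 mouse miRNAs measured on all arrays, on the same scale. For miR-221 they were miR-34a (r = 0.96), a target gene of p53, miR-29a (0.91), which represses collagen genes, miR-204 (0.90), miR-27a (0.89) and miR-31 (0.88). For miR-222 they were miR-30d (0.84), miR-30e (0.83), miR-34a (0.82), miR-29c (0.82) and miR-331-3p (0.82). The median r over all compared miRNAs was 0.09 for miR-221 and 0.12 for miR-222. miR-222 itself came at place 19 in the order of likeness to miR-221, and miR-221 at place 11 in that of miR-222. miR-34a was the one miRNA in both lists of 5. These values share the arrays and the reference mean, and are a description.

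The miRNAs most like the pair also differed between runs of array numbers, which the choice by r over the same arrays partly fixes. The mean log2 level of miR-34a was 2.77, 2.79, 2.13 and 1.65 on arrays 4 to 6, 7 to 9, 10 to 12 and 13 to 15, without the fall that miR-221 had from the first run to the next. That of miR-31 was 6.91, 6.48, 6.11 and 3.89. After the mean of each run was taken away, miR-222 fell to place 81 in the order of likeness to miR-221, and miR-221 to place 101 in that of miR-222.

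The pair was also set beside lists of miRNAs linked to inflammation and to angiogenesis. Of 9 inflammation-linked miRNAs 8 had an assay and were tested. After Tri-DAP 0 rose and 1 fell in the limma test without adjustment, beside 1.69% of all miRNAs tested. This was miR-147, a miRNA induced by Toll-like receptors in macrophages, with a log2 difference of -2.80 relative to U6. It was measured on 8 of the 12 arrays. After MDP 0 passed the test, beside 1.23% of all, miR-147 having a log2 difference of -1.81. miR-146a, an inhibitor of Toll-like receptor signalling that NF-κB induces, had log2 differences from control of -0.22 after Tri-DAP and -0.07 after MDP, and miR-155, which activated immune cells induce, had -0.12 and 0.11. The median log2 difference of the list was -0.16 after Tri-DAP and -0.02 after MDP, beside -0.24 and -0.02 over all miRNAs tested.

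Of 19 angiogenesis-linked miRNAs 18 had an assay, and 0 passed the limma test after either ligand, near the background of 1.69% and 1.23%. Their median log2 difference was -0.14 after Tri-DAP and -0.03 after MDP. miR-126-3p, which supports vascular integrity and is the defining miRNA of endothelial cells, had log2 differences of -0.05 and -0.01.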

How the data were processed

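Per the methods, 350 ng of total RNA was used for each reverse transcription with rodent primers, and the authors ran 40 cycles with an automatic threshold. The deposited Ct values are not normalized. The deposited normalized values are on a log2 scale, Ct minus the mean over that array's 4 U6 wells, which held on recomputation to within 5.33e-15 cycles. A deposited table of fold changes between group means and 12 unnamed columns with 1 value each were not used.

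Wells at Ct 40 were set missing and the sign was turned. All 12 arrays entered 1 fit with limma 3.58.1 (lmFit, eBayes) in R 4.3.3, with a mean per group and no block. miRNAs with at least 2 values in both groups were tested and called at an unadjusted p under 0.05, with Benjamini-Hochberg adjustment beside it. The fit was tested on simulated data. Single values had two-sided exact permutation tests, and correlations had permutation tests with 100000 resamples. Intervals are at 95%. The number of arrays limits the precision.

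The members, lists and tests were chosen with earlier results of these data known. Named were both members, reference RNAs, their neighbours in Ct, the 5 miRNAs most like each, called or defining list members, and the pairs with the lowest, middle and highest SD. Alternatives were other references, missing-value rules, fits, tests and each array left out. The runs of array numbers, the reference without miR-680, the U6 median and the relations with U6 were added after seeing the data.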

Additional observations from a re-analysis of the deposited data

How the results depend on the processing

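None of 162 alternative values for the 6 comparisons of miR-221 and miR-222 passed an unadjusted p under 0.05 (limma, the exact permutation test or the methods' t-test). Of these values 130 kept their direction and 32 changed sign. Many of the 130 equal the main difference by construction and could not change sign. Missing-value rules, other limma fits, other tests, the block with U6 and left-out arrays of the group not compared do not alter it. With the mean of 174 miRNAs as the reference, with or without the runs of array numbers as a block, the log2 differences were 0.052, 0.014 and -0.038 for miR-221 (Tri-DAP against control, MDP against control, MDP against Tri-DAP) and -0.020 for miR-222 (MDP against Tri-DAP). With miR-680, which had 1 very early well, left out of that mean, they were 0.080, 0.018 and -0.062 for miR-221, and 0.022 (Tri-DAP against control) and -0.044 (MDP against Tri-DAP) for miR-222. With the median of the U6 wells, MDP against control was 0.23 for miR-221 and 0.19 for miR-222. The other comparisons kept their sign with this median but were larger. MDP against Tri-DAP was 0.52 for miR-221 and 0.53 for miR-222, beside 0.16 and 0.18 in the main fit. Tri-DAP against control was -0.29 and -0.35, beside -0.18 and -0.24. With 1 array left out, the 3 differences ran from -0.72 to 0.27, -0.39 to 0.25 and -0.29 to 0.70 for miR-221, and from -0.65 to 0.13, -0.37 to 0.18 and -0.19 to 0.59 for miR-222. Both ends for Tri-DAP came without Tri-DAP 8 and without Tri-DAP 14. The sign also turned without control 4, control 7, Tri-DAP 11, MDP 6, MDP 9, MDP 12 or MDP 15 in at least 1 comparison. The lead of miR-222 differed by -0.23 to 0.077, -0.21 to 0.082 and -0.12 to 0.10 cycles. The correlation of both miRNAs was 0.68 to 0.82 with 1 array left out, 0.95 relative to U6, 0.60 without 2 arrays and 0.024 within runs of array numbers. Relative to U6, both values hold the same U6 mean of the array, which by itself can raise r. On the uncorrected Ct, which shares the amount of RNA, the correlation was 0.70. That of miR-221 with U6 was -0.14 to 0.42, and -0.033 without 2 arrays. That of miR-222 with U6 was 0.17 to 0.69, passing the threshold without control 7, control 10, Tri-DAP 14 or MDP 6. Over all alternatives but the left-out arrays, the number of miRNAs called was 1 to 13, 0 to 12 and 0 to 12 in the 3 comparisons, and with 1 array left out 1 to 12, 1 to 5 and 2 to 17, beside 4, 3 and 5. The causes were not tested. The labels give no array number to more than 1 group, so the runs of array numbers are the only block tried, and the pairing they imply is stated nowhere in the sources used here. With that block the limma intervals were narrower. Relative to the mean of the 174 miRNAs, miR-221 had -0.32 to 0.42 after Tri-DAP and -0.35 to 0.38 after MDP. For miR-222 they were -0.47 to 0.45 and -0.48 to 0.43. Relative to U6 the blocked intervals still reached past a 2-fold change.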
